A study of Mus musculus with 53 samples.

Results

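Mammary tumours grown from whole-genome-doubled TA3 cells and treated with YM-155 were compared between an immune-competent host, A/J, and an immune-deficient host, NSG. The members were taken by their titles: the 3 libraries from A/J mice and the 3 from NSG mice that carried the WGD+ form of the tumour and received YM-155, 6 of the 53 libraries of the series. Both groups hold tumours of the mouse mammary line TA3Hauschka, engineered to be whole-genome-doubled (WGD+), placed in Matrigel in the inguinal mammary fat pad of 6-week-old females and treated with YM-155 for 14 days. The A/J group comprised 3 tumours in A/J mice. The NSG group comprised 3 tumours in mice labelled NOD.Cg and MloySzJ, a NOD strain with the scid mutation of Prkdc (Prkdcscid) and a null allele of Il2rg (Il2rgtm1Wjl). These mice also carry Tg(CMV-IL3,CSF2,KITLG)1Eav, in which the CMV promoter drives 3 human cytokine genes. The 2 hosts therefore differed in strain background and in the human cytokines as well as in lymphocytes, and these cannot be told apart here. A/J and NSG tumours given vehicle (WGD+), and A/J and NSG tumours of the undoubled form (WGD-) given YM-155, 3 libraries a group, served for comparison. Groups follow the titles. The genotype field gives WGD+ for the 6 main libraries, as their titles do, but contradicts the title in all 12 comparison libraries, giving WGD- for the vehicle tumours and WGD+ for the WGD- YM-155 tumours, so the doubling state of those is uncertain. The labels do not say whether the numbered replicates came from separate animals, and a p-value here covers only how far these libraries vary.

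The scid mutation stops the joining of antigen receptor genes, and loss of the common gamma chain encoded by Il2rg removes the signals of several interleukins, so that NSG mice lack T, B and natural killer cells while keeping myeloid cells of reduced function. T and natural killer cells are the main source of interferon-gamma, which raises MHC class I and class II antigen presentation, the guanylate-binding proteins and the chemokines CXCL9 and CXCL10. YM-155 (sepantronium bromide) is a small molecule found in screens for compounds that lower transcription of Birc5, which encodes the apoptosis inhibitor survivin.

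Expression is given as the deposited log2(CPM + 1), where CPM is a gene's reads scaled to the library's size, after the authors' scaling, so 0 means no read. The 6 libraries held 5.11 to 7.53 M (mega) reads assigned to genes. The epithelial keratins Krt14, Krt5 and Krt8 read 7.34 to 10.35 in every library. Of the 13 epithelial and mammary tumour genes, all had reads in each library, except for 1 at 0 in A/J replicate 3. These levels show epithelial genes and do not by themselves settle the mammary origin. A/J replicate 2 stood apart from the other A/J tumours. Its values over the 13826 genes tested correlated at r = 0.954 and 0.956 with A/J replicates 1 and 3, which correlated at 0.988 with each other. Its closest library among the 24 was A/J WGD+ vehicle replicate 2 (r = 0.979). A vehicle library was also the closest for NSG YM-155 replicates 1 and 3. These were NSG WGD+ vehicle replicates 1 and 3 (r = 0.988 and 0.984), so such a match was not particular to A/J replicate 2. In it 753 genes were more than 1 log2 unit above both other A/J libraries and 437 more than 1 below, against 26 and 35 above, and 74 and 27 below, in A/J replicates 1 and 3. In NSG replicate 3, 196 genes were more than 1 above both other NSG libraries. Whether A/J replicate 2 matches its label was not tested, so its treatment rests on the label alone. List medians that moved by over 1.5 times without A/J replicate 2 are given both ways. In the A/J WGD- YM-155 tumours, replicate 2 also had the highest summed MHC class II level, at 474 CPM, against 33.7 and 105 CPM in replicates 1 and 3.

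With limma and Benjamini-Hochberg adjustment over all genes, 5 of 13826 genes were called at an adjusted p under 0.05, 0.0362% of those tested. Of these, 1 gene (0.00723%) was higher in A/J tumours and 4 (0.0289%) were lower. A further measure, an unadjusted p under 0.05, was met by 1754 genes (12.7%), and voom on the reads recovered from the deposited values called 1 gene. The count ran from 1 to 13 when each library was left out, and was 0 with the 6 libraries fitted alone, 28 without 2 A/J WGD- vehicle libraries and 42 with array weights. The median difference, A/J minus NSG, was -0.01 over all genes tested.

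**Figure D1:**
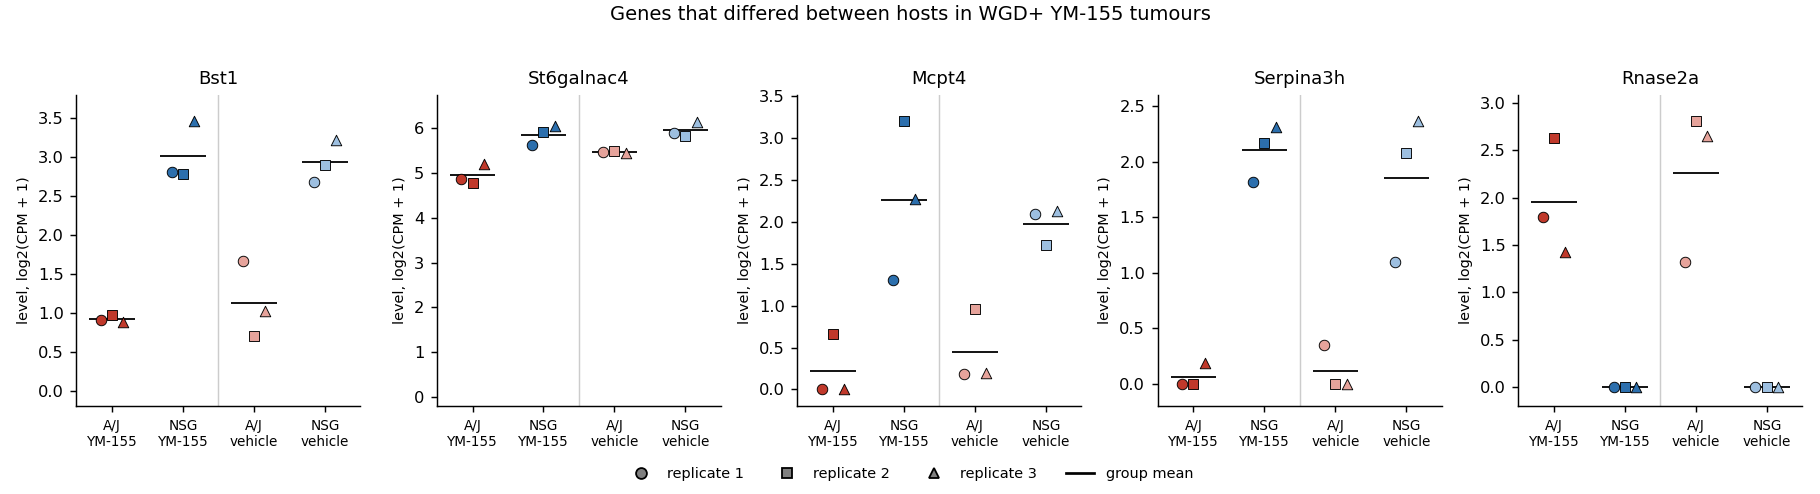
Levels of the 5 genes called between hosts, in log2(CPM + 1), in A/J and NSG WGD+ tumours given YM-155 (left of each panel) and vehicle (right); points are libraries and bars are group means. The 3 A/J and 3 NSG libraries given YM-155 do not overlap for any of the 5 genes, and Rnase2a is at 0 in all 6 NSG libraries shown.

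The most stable of the called genes was Bst1, which encodes CD157, an ADP-ribosyl cyclase of bone marrow stromal and myeloid cells. Bst1 (chromosome 5, 43818885 to 43843986, GRCm38) had levels of 0.91, 0.97 and 0.88 in A/J tumours, against 2.81, 2.78 and 3.46 in NSG tumours. Every A/J library was low and the groups were far apart. The means were 0.92 ± 0.05 in A/J and 3.02 ± 0.38 in NSG tumours (SD, n = 3 each), a difference of -2.10 (SE 0.28, limma adjusted p = 0.0018). As reads, these were 17 in the A/J libraries together and 153 in the NSG libraries together. Bst1 was called when each of the 6 libraries was left out in turn, and was not called when these libraries were fitted alone (limma adjusted p = 0.101). It was also lower in A/J tumours under vehicle (-1.81, limma adjusted p = 0.0013) and in the WGD- YM-155 tumours (-1.55, limma adjusted p = 0.0072).

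St6galnac4, a sialyltransferase that adds sialic acid to O-linked glycans, was the only called gene with a level above 4 in both hosts. St6galnac4 (chromosome 2, 32587095 to 32599698) read 4.87, 4.78 and 5.20 in A/J tumours, against 5.62, 5.90 and 6.04 in NSG tumours. The highest A/J library lay below the lowest NSG library. The difference of -0.90 (SE 0.17, limma adjusted p = 0.047) was close to the threshold and was no longer called without A/J replicate 1 or 2, or NSG replicate 2 or 3 (adjusted p 0.074 to 0.32). It was not called under vehicle (-0.48, limma adjusted p = 0.061) or in the WGD- YM-155 tumours (-0.38, limma adjusted p = 0.16).

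Mcpt4 encodes mouse mast cell protease 4, a chymase of connective tissue mast cells. Mcpt4 (chromosome 14, 56059629 to 56062313) read 0, 0.66 and 0 in A/J tumours, against 1.30, 3.20 and 2.27 in NSG tumours. It was almost unseen in A/J tumours, with 3 reads in all, against 88 reads in NSG tumours. The ratio of A/J to NSG CPM was 0.037 (95% exact interval 0.0075 to 0.11). Intervals on reads cover counting error only, since amplified reads are not independent molecules. The fitted difference was -2.04 (SE 0.36, limma adjusted p = 0.033). It lost its call without A/J replicate 1, 2 or 3 and without NSG replicate 2 or 3 (adjusted p 0.062 to 0.18). Mcpt4 was also lower in A/J tumours under vehicle (-1.53, limma adjusted p = 0.012). In the WGD- YM-155 tumours it was not called (-0.72, limma adjusted p = 0.22). In a bulk tumour, fewer cells of a type and less RNA per cell cannot be told apart.

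The remaining called genes fell outside the rule for naming genes because of their low levels, and are named since there were only 2. Serpina3h, a serine protease inhibitor of a multigene family, had levels of 0, 0 and 0.19 in A/J tumours, against 1.82, 2.18 and 2.31 in NSG tumours. A single A/J read stood against 69 NSG reads, a ratio of 0.016 (95% exact interval 0.00039 to 0.090), and the fitted difference was -2.04 (SE 0.34, limma adjusted p = 0.022). Rnase2a encodes an eosinophil-associated ribonuclease, and its levels were 1.80, 2.63 and 1.42 in A/J tumours, against 0 in each NSG tumour. With 56 A/J reads and no NSG read, the A/J level was at least 20.2-fold higher, taking 3 reads over the NSG group as the limit that a count of 0 allows. With the counting error of the A/J reads included, the exact 95% interval of the ratio has a lower limit of 15.9. The fitted difference of 1.95 (SE 0.33, limma adjusted p = 0.023) depends on the pseudocount. Both genes have close relatives in tandem, so their counts are uncertain. Neither was called without A/J replicate 1 or 2, or NSG replicate 2 or 3.

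The same 2 genes also differed under vehicle, by -1.74 for Serpina3h and by 2.26 for Rnase2a (limma adjusted p = 0.0033 and 0.00096). In WGD- YM-155 tumours neither was called, at -1.06 for Serpina3h and 0.38 for Rnase2a (limma adjusted p = 0.053 and 0.49). Among the eosinophil markers fixed for the tumours, Epx, Prg2 and Ear2 were listed at 0 in all 6 libraries. Il5ra, the interleukin-5 receptor of eosinophils, read 1.86, 1.73 and 1.81 in A/J tumours, against 0.62, 0 and 0.19 in NSG tumours. The groups did not overlap, and the difference of 1.53 (SE 0.36, limma adjusted p = 0.11) was not called. Under vehicle Il5ra did not separate the hosts, at 0.35, 0.56 and 1.38 in A/J tumours and 1.19, 0.74 and 0.34 in NSG tumours.

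The genes mutated in the NSG host and the reported target of the drug were read as a check. Il2rg had levels of 2.68, 3.63 and 2.95 in A/J tumours, against 2.36, 2.23 and 2.19 in NSG tumours. All A/J libraries were above all NSG libraries, and the difference was 0.83 (SE 0.33, limma adjusted p = 0.32). Under vehicle it was 1.44 and called (limma adjusted p = 0.0096). Prkdc read 4.13, 3.65 and 4.0 in A/J tumours, against 4.37, 3.91 and 4.23 in NSG tumours, a difference of -0.24 with a 95% interval of -0.80 to 0.31. The scid allele is a point mutation, and the tumour cells carry their own copies of both genes, so these levels do not test the genotype of the host. Birc5 read 7.25, 7.18 and 7.08 in A/J tumours, against 7.07, 7.52 and 6.89 in NSG tumours. The groups overlapped and the difference was 0.01, with a 95% interval of -0.37 to 0.39.

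The T cell receptor and cytotoxic granule genes named here were at or near 0 in A/J replicates 1 and 3, and in the NSG tumours. Of the 16 T cell markers, 11 were at 0 in A/J replicate 1, 1 in A/J replicate 2 and 6 in A/J replicate 3, against 9, 7 and 10 in the NSG libraries. Cd3e and Cd3g, subunits of the T cell receptor complex, were at 0.66 in A/J replicate 2 and at 0 in the other 5 libraries. Gzmc, a granule protease of cytotoxic lymphocytes, read 0, 3.44 and 0.36 in A/J tumours, against 0, 0 and 0.19 in NSG tumours. The perforin gene Prf1 and the granule gene Nkg7 were both at 1.11 in A/J replicate 2 and at 0 in the other 5 libraries. Under vehicle, Prf1 was seen in every A/J tumour, at 1.06, 1.61 and 0.91, and in no NSG tumour.

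No lymphocyte marker was called by limma in either direction, of 8 T cell, 11 cytotoxic and 3 B cell genes tested. Voom, too, left Gzmc and the other members uncalled. In the same order, 1, 2 and 2 had an unadjusted p under 0.05, against 12.7% of all genes. Without overlap, 1 cytotoxic gene was higher and 1 lower in A/J tumours, and 1 B cell gene was lower. Over all genes, 7.48% were higher and 7.41% lower without overlap. Several genes used as lymphocyte markers were instead present at like levels in tumours of the host that lacks these cells. Foxp3, the regulatory T cell factor, read 3.99, 4.87 and 4.06 in A/J tumours, against 3.60, 4.46 and 3.46 in NSG tumours. Lck, the T cell kinase, read 4.16, 3.51 and 4.01 in A/J tumours, against 3.82, 3.76 and 3.66 in NSG tumours. The summed T cell list, 65.5, 82.4 and 69.1 CPM in A/J tumours and 56.8, 65.6 and 54.6 CPM in NSG tumours, overlapped between the hosts.

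Interferon-gamma target genes carry short promoter motifs that can be read directly. RefSeq promoter windows (GRCm38.p6, 250 bases before to 50 after the start of transcription) were searched on both strands for the GAS motif, TTCNNNGAA, and for the core of the interferon-stimulated response element, GAAA repeated after any 2 bases. Of all 27025 genes with a window, 9.55% held the GAS letters and 3.99% the response element core (8.3% and 3.44% of the 32851 windows). Of the 20 interferon-gamma response genes tested, 14 had a window; 6 of these held the GAS letters and 11 the core. Of the 16 MHC class I genes tested, 14 had a window, of which 2 held the GAS letters and 4 the core. Of the 18 fibroblast and matrix genes, 11 had a window, and 0 held either. The windows of Irf1, Gbp2b, Igtp and B2m are shown because they span the transcription factor, 2 families of interferon-induced GTPases and the MHC class I light chain. Only windows that held a match are printed, so the 4 do not show how common the motifs are in their lists. Capitals mark the matches, each sequence is on the plus strand of its chromosome and runs 5′ to 3′, and the motifs do not overlap where both are present. The regions are chr11:53769764-53770063 for Irf1, chr3:142594597-142594896 for Gbp2b, chr11:58199306-58199605 for Igtp and chr2:122147437-122147736 for B2m.
Irf1: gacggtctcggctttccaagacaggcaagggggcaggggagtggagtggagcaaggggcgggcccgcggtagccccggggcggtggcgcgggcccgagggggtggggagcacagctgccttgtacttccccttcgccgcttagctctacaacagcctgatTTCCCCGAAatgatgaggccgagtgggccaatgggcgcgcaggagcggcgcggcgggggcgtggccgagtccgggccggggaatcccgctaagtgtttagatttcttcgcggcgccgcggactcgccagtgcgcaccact
Gbp2b: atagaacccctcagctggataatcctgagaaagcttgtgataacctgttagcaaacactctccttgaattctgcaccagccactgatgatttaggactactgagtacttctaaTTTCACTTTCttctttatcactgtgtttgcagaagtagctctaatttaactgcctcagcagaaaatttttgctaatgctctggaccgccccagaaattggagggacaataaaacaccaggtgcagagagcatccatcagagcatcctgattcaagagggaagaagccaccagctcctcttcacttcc
Igtp: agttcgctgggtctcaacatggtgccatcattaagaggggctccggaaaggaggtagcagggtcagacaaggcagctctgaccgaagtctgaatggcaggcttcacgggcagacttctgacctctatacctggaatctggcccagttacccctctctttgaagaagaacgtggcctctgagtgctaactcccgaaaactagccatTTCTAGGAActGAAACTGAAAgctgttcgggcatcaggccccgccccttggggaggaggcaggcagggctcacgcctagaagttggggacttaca
B2m: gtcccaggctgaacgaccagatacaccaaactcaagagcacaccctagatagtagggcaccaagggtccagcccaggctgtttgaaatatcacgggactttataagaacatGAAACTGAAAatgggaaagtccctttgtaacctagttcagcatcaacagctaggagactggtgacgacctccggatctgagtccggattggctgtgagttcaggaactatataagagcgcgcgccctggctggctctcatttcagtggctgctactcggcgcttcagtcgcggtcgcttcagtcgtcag

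Igtp and B2m hold the same 10 letters of the core, GAAACTGAAA, and Igtp has a GAS match beside it. A match describes the letters of the window and says nothing of binding in these tumours.

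The levels of these genes were high in A/J replicate 2 and, in A/J replicates 1 and 3, within or near the range of the NSG tumours. Irf1, the transcription factor that relays interferon-gamma, read 5.40, 6.85 and 5.55 in A/J tumours, against 5.29, 5.38 and 5.72 in NSG tumours. Gbp2b, a guanylate-binding GTPase, read 3.29, 5.63 and 3.45 in A/J tumours, against 2.67, 3.15 and 2.73 in NSG tumours. Every A/J library lay above every NSG library for Gbp2b, and the groups overlapped for Irf1.

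Igtp, an immunity-related GTPase, read 2.89, 6.11 and 3.49 in A/J tumours, against 3.35, 3.93 and 3.56 in NSG tumours. Cxcl9, the chemokine that draws activated T cells, read 0.20, 4.53 and 0.88 in A/J tumours, against 1.45, 0.74 and 1.54 in NSG tumours. In both genes A/J replicate 1 was the lowest of the 6 libraries and A/J replicate 2 the highest. Of the 20 interferon-gamma response genes tested, 0 were called by limma or by voom in either direction, and 0 had an unadjusted p under 0.05. A/J replicate 2 was the highest A/J library for 20 of the 20, by a median of 1.95 over the mean of the other A/J libraries. The median host difference of the list was 0.54 with A/J replicate 2 and -0.07 without it. Nos2, inducible nitric oxide synthase, went the other way, at 2.17, 2.54 and 2.53 in A/J tumours, against 3.33, 3.44 and 3.35 in NSG tumours, a difference of -0.96 (SE 0.62) that was not called (limma adjusted p = 0.53).

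**Figure D2:**
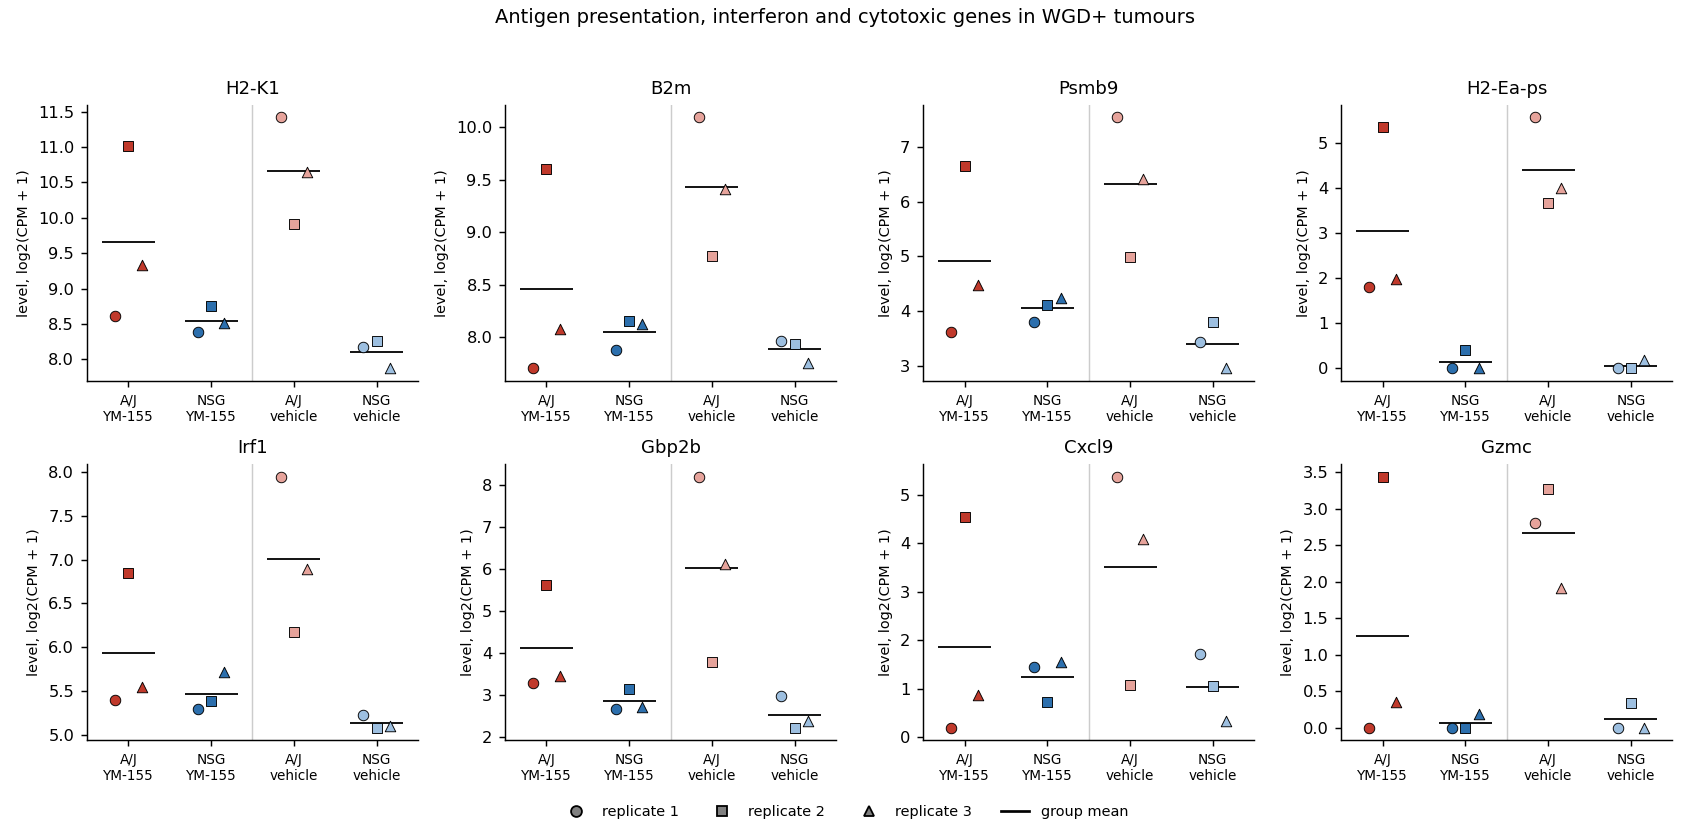
Levels of MHC class I (H2-K1, B2m, Psmb9), class II (H2-Ea-ps), interferon-gamma response (Irf1, Gbp2b, Cxcl9) and cytotoxic (Gzmc) genes, in log2(CPM + 1), in WGD+ tumours by host and treatment; points are libraries and bars are means. Under YM-155 replicate 2 (square) is the highest A/J library in every panel, for example 11.01 for H2-K1 against 8.61 and 9.33. For H2-Ea-ps and Gbp2b, A/J replicates 1 and 3 also lie above the 3 NSG libraries. Under vehicle the 3 A/J libraries lie above the 3 NSG libraries for all but Cxcl9.

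MHC class I presentation followed the same libraries. H2-K1, a classical class I heavy chain, read 8.61, 11.01 and 9.33 in A/J tumours, against 8.38, 8.75 and 8.51 in NSG tumours. B2m, the class I light chain, read 7.71, 9.61 and 8.08 in A/J tumours, against 7.88, 8.15 and 8.13 in NSG tumours. Psmb9, a catalytic subunit of the immunoproteasome that cuts peptides for class I, read 3.61, 6.65 and 4.48 in A/J tumours, against 3.79, 4.11 and 4.24 in NSG tumours. For each of the 3, A/J replicate 2 was the highest of all 6 libraries.

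Summed over the 19 class I genes, A/J tumours held 1241, 5483 and 1801 CPM, against 1138, 1435 and 1323 CPM in NSG tumours. Of the 16 class I genes tested, 0 were called by limma or by voom, and 1, the proteasome activator subunit Psme1, had an unadjusted p under 0.05. Psme1 read 6.82, 7.85 and 6.88 in A/J tumours, against 6.45, 6.81 and 6.52 in NSG tumours, so its groups did not overlap. The difference was 0.59 (SE 0.25, limma adjusted p = 0.35). The list median was 0.74, with 15 of 16 differences above 0, and 0.15 with 10 of 16 above 0 without A/J replicate 2. H2-Q6, H2-Q7 and H2-T22, which have near-identical copies, were listed at 0 in all 24 libraries and were not tested.

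Class II genes were also highest in A/J replicate 2 among the A/J tumours, for 9 of 9 tested. The summed class II list was 45.4, 573 and 49.0 CPM in A/J tumours, against 55.6, 130 and 181 CPM in NSG tumours. Cd74, the invariant chain, read 3.03, 7.10 and 3.10 in A/J tumours, against 3.21, 4.98 and 5.40 in NSG tumours. H2-Eb1, the E beta chain, read 1.53, 5.63 and 1.98 in A/J tumours, against 3.06, 3.86 and 4.72 in NSG tumours. The class II median was -0.06 over 9 genes tested and -0.87, with 2 of 9 above 0, without A/J replicate 2. H2-Ea-ps is the E alpha chain gene, of which the NOD strain is known to carry a defective copy. It read 1.80, 5.37 and 1.98 in A/J tumours, against 0, 0.42 and 0 in NSG tumours. It separated the hosts fully, yet the difference of 2.91 (SE 0.81) was not called (limma adjusted p = 0.22), with the spread among A/J tumours at 2.01 (SD).

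Type I interferon response genes gave the same picture at a smaller size. Of 26 genes tested 0 were called by limma or by voom, with 1 at an unadjusted p under 0.05, and the median difference was 0.17, or -0.20 without A/J replicate 2. Bst2, tetherin, read 5.55, 9.02 and 6.96 in A/J tumours, against 6.39, 6.63 and 6.25 in NSG tumours. Ifi27l2a, an interferon-induced mitochondrial protein gene, was low in all A/J tumours, at 3.81, 4.07 and 3.91, against 5.04, 5.03 and 5.87 in NSG tumours. Its difference of -1.38 (SE 0.42, limma adjusted p = 0.24) was little changed without A/J replicate 2, at -1.46. The cytosolic sensing genes, among them the STING gene Tmem173, had a median difference of -0.12 over 14 tested, and 0 were called by limma, with 3 at an unadjusted p under 0.05.

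**Figure D3:**
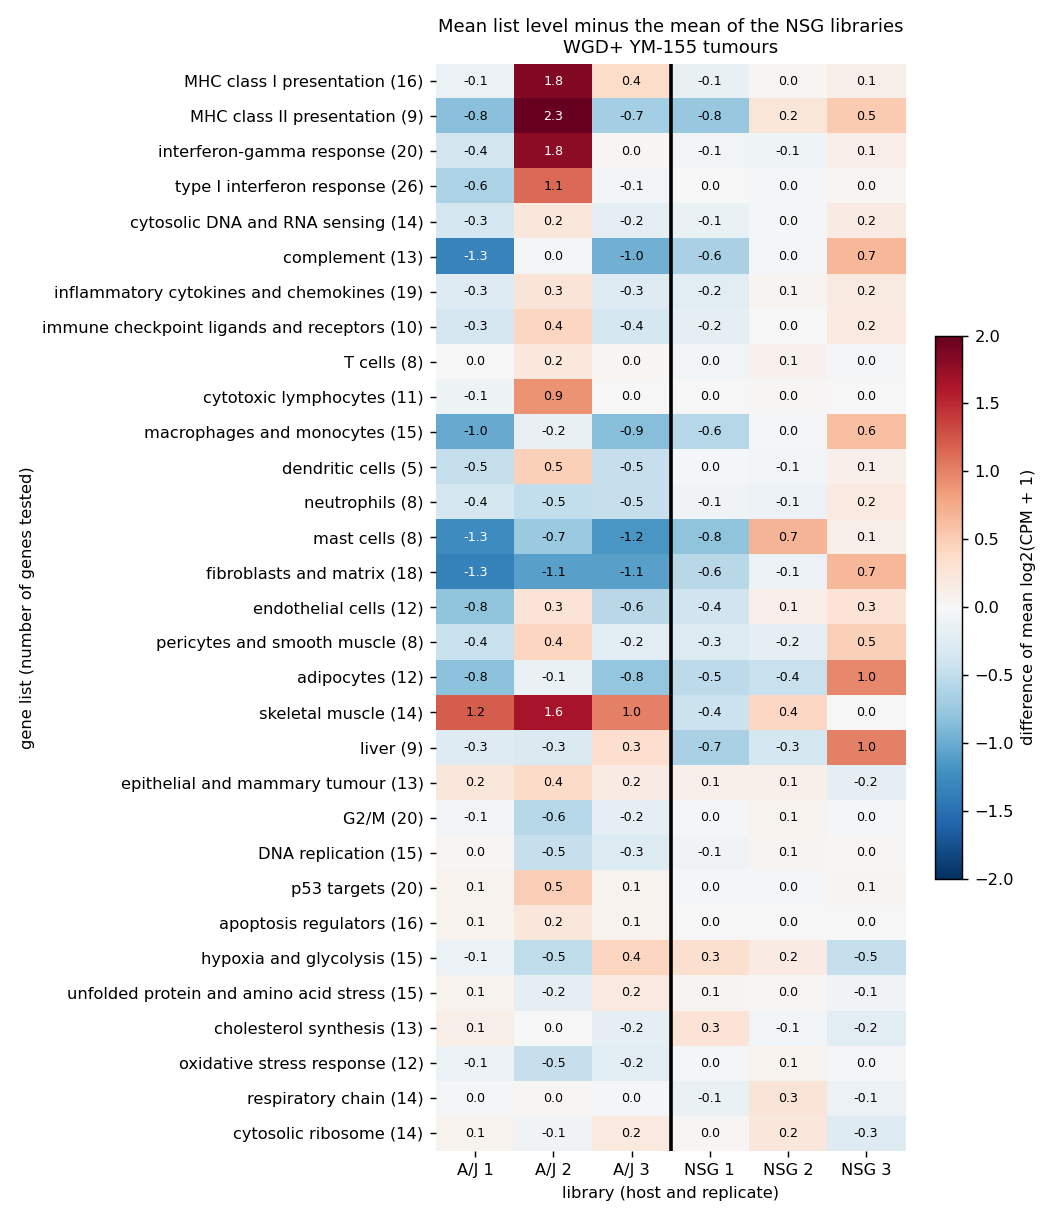
Mean level of each gene list in each WGD+ YM-155 tumour, as the difference from the mean of the 3 NSG libraries in log2(CPM + 1); rows are lists with the number of genes tested, columns are libraries, A/J left of the line. A/J replicate 2 differs from A/J replicates 1 and 3 in the interferon and MHC rows, while the fibroblast and muscle rows separate all A/J libraries from all NSG libraries.

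Myeloid genes tended to lower values in A/J tumours, most of all against NSG replicate 3. Of 15 macrophage and monocyte genes tested, 14 had a difference below 0, 2 had groups that did not overlap with A/J lower, and 0 were called by limma or by voom, with 4 at an unadjusted p under 0.05. Over all genes, 7.41% had A/J libraries that all lay below the NSG libraries and 7.48% had all A/J libraries above. An unadjusted p under 0.05 was met by 12.7% of all genes, and these shares are the background for the counts of every list. The list median was -0.71, or -1.07 without A/J replicate 2, and NSG replicate 3 was the highest NSG library for 13 of the 15. Fcgr1, the high-affinity IgG receptor, read 1.38, 3.02 and 1.50 in A/J tumours, against 2.84, 3.83 and 4.92 in NSG tumours. Its groups overlapped, and the difference was -1.90 (SE 0.60, limma adjusted p = 0.24). Marco, a scavenger receptor, read 0.66, 0.66 and 1.76 in A/J tumours, against 2.32, 2.71 and 2.05 in NSG tumours, with no overlap. Ccl2, the chemokine that draws monocytes, read 2.58, 3.70 and 2.75 in A/J tumours, against 3.88, 4.43 and 4.51 in NSG tumours. Its difference was -1.27 (SE 0.43, limma adjusted p = 0.26).

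Complement genes showed 4 of 13 members whose A/J libraries all lay below the NSG libraries, and 0 called by limma or by voom, with 5 at an unadjusted p under 0.05. The shares over all genes were 7.41% below without overlap and 12.7% at an unadjusted p under 0.05. C5ar1, the receptor of the anaphylatoxin C5a, read 2.17, 2.99 and 2.38 in A/J tumours, against 3.24, 4.14 and 4.44 in NSG tumours. C2, a component of the classical pathway, read 0.37, 0.47 and 0.36 in A/J tumours, against 1.14, 2.01 and 2.14 in NSG tumours. Both were lower in every A/J library, by 1.42 and 1.36, at limma adjusted p of 0.17 and 0.18. C1qa, made by macrophages, overlapped between the hosts, at 4.86, 7.40 and 5.46 in A/J tumours and 5.47, 6.38 and 6.91 in NSG tumours.

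Neutrophil genes were lower in A/J tumours in 5 of 8 members tested without overlap, and 1 was higher without overlap. None was called by limma or by voom, and 3 had an unadjusted p under 0.05. Among all genes tested, 7.41% were lower and 7.48% higher without overlap, and 12.7% had an unadjusted p under 0.05. Cxcr2, the receptor that brings neutrophils to tissue, read 3.37, 3.09 and 3.0 in A/J tumours, against 4.01, 3.95 and 4.24 in NSG tumours. Ltf, lactoferrin, went the other way, at 3.05, 4.61 and 3.02 in A/J tumours, against 2.32, 1.88 and 2.10 in NSG tumours. Their differences were -0.91 (SE 0.34) and 1.46 (SE 0.45), at limma adjusted p of 0.29 and 0.23. Csf3, the granulocyte growth factor, read 4.18, 4.51 and 4.60 in A/J tumours, against 4.93, 5.49 and 5.08 in NSG tumours.

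Mast cell proteases were close to absent in A/J tumours and present in NSG tumours. Tpsb2, a tryptase, read 0.37, 0.47 and 0.51 in A/J tumours, against 1.14, 3.67 and 2.53 in NSG tumours. Cma1, a chymase, read 0.37, 0.66 and 0 in A/J tumours, against 0.95, 3.23 and 2.31 in NSG tumours. Both were highest in NSG replicate 2 and in neither did the groups overlap. Their differences were -2.0 and -1.82, at limma adjusted p of 0.079 and 0.11. Of 8 mast cell genes tested, Mcpt4 was called lower, 4 were lower without overlap and 6 had an unadjusted p under 0.05, with a list median of -1.10. The last 2 counts compare with 7.41% and 12.7% of all genes. Fcer1a and Ms4a2, which encode subunits of the IgE receptor, were at 0 in all A/J tumours and reached 0.74 at most in NSG tumours. Kit, the receptor for the mast cell growth factor, overlapped between the hosts, at 1.02, 2.72 and 1.26 in A/J tumours and 1.82, 0.88 and 2.23 in NSG tumours.

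The fibroblast and matrix list separated the hosts in each library. Summed over its 18 genes, A/J tumours held 1214, 1507 and 1357 CPM, against 1935, 2584 and 4470 CPM in NSG tumours. All 18 differences were below 0, 11 members had A/J libraries that all lay below the NSG libraries, and 0 were called by limma or by voom, with 11 at an unadjusted p under 0.05. The same shares over all genes were 7.41% below without overlap and 12.7% at an unadjusted p under 0.05. The list median was -1.20, and -1.35 without A/J replicate 2. NSG replicate 3 was the highest NSG library for 17 of the 18.

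Fbln1, the matrix glycoprotein fibulin-1, read 0.91, 0.66 and 1.50 in A/J tumours, against 2.03, 3.12 and 3.75 in NSG tumours. Its difference of -1.95 (SE 0.37) fell just short of the threshold (limma adjusted p = 0.056). It was called without A/J replicate 3 (-2.18, limma adjusted p = 0.037) and without NSG replicate 1 (-2.42, limma adjusted p = 0.0036), and without NSG replicate 3 it was -1.55 and not called (limma adjusted p = 0.32). Col3a1, the fibrillar collagen III chain, read 5.90, 5.28 and 6.37 in A/J tumours, against 7.53, 8.0 and 9.23 in NSG tumours, a difference of -2.41 (limma adjusted p = 0.38). Col6a3, a collagen VI chain, read 5.21, 5.65 and 5.53 in A/J tumours, against 6.33, 6.36 and 7.65 in NSG tumours, a difference of -1.32 (SE 0.31, limma adjusted p = 0.12). In each of these genes every A/J library lay below every NSG library. Sparc, a collagen-binding matrix protein, read 9.11, 9.35 and 9.17 in A/J tumours, against 9.45, 9.74 and 9.99 in NSG tumours.

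**Figure D4:**
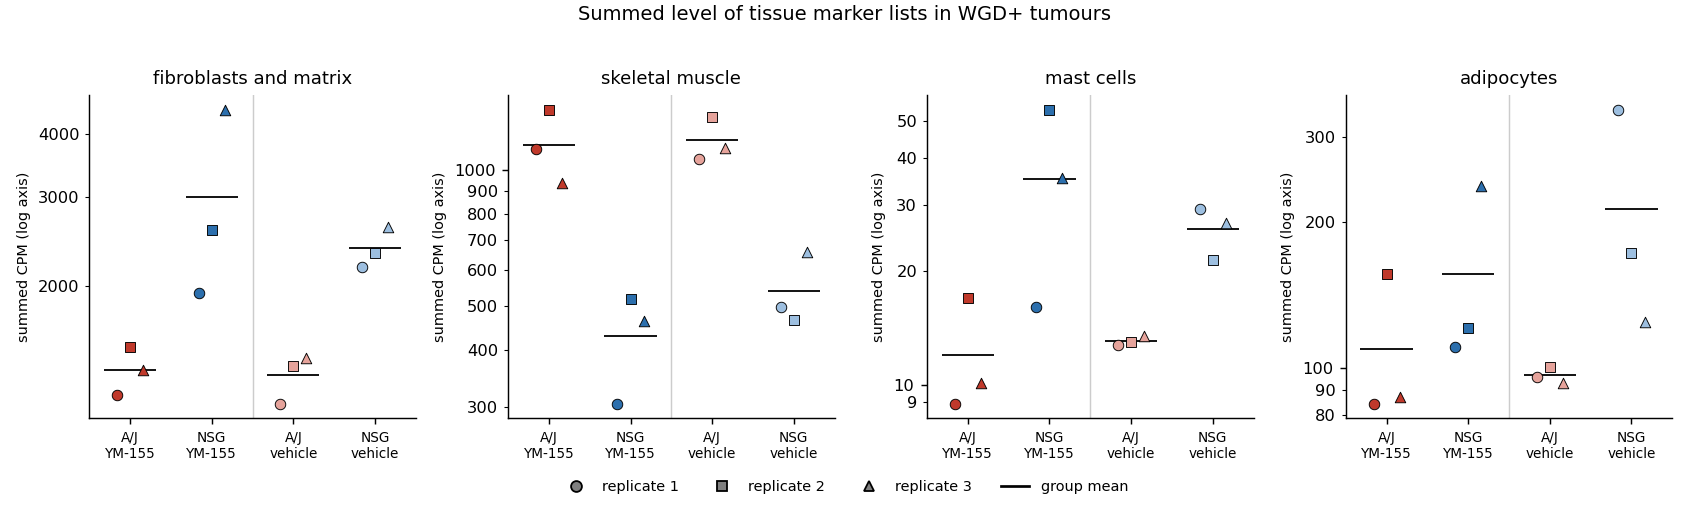
Summed CPM, on a log axis, of the fibroblast and matrix, skeletal muscle, mast cell and adipocyte marker lists in WGD+ tumours by host and treatment; points are libraries and bars are means. Fibroblast and matrix genes sum to 1214 to 1507 CPM in A/J and 1935 to 4470 CPM in NSG YM-155 tumours, and muscle genes to 934 to 1360 CPM in A/J and 305 to 519 CPM in NSG YM-155 tumours.

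Skeletal muscle genes moved the other way. Their sum over 14 genes was 1113, 1360 and 934 CPM in A/J tumours, against 305, 519 and 463 CPM in NSG tumours. All 14 differences were above 0 and 12 members had A/J libraries that all lay above the NSG libraries, while 0 were called by limma or by voom, with 9 at an unadjusted p under 0.05. Among all genes tested, 7.48% lay above without overlap and 12.7% had an unadjusted p under 0.05. The list median was 1.31, and 1.20 without A/J replicate 2. Myh4, the myosin heavy chain of fast glycolytic fibres, read 8.01, 8.67 and 7.99 in A/J tumours, against 6.20, 7.04 and 6.68 in NSG tumours. Its difference was 1.58 (SE 0.49, limma adjusted p = 0.24). Ttn, the sarcomeric spring titin, read 5.07, 5.36 and 4.77 in A/J tumours, against 3.26, 3.73 and 3.61 in NSG tumours, a difference of 1.53 (SE 0.48, limma adjusted p = 0.24). The part of muscle tissue in the other host differences was not tested.

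Adipocyte genes set NSG replicate 3 apart more than they set the hosts apart. Adipoq, the adipocyte hormone adiponectin, read 0, 1.11 and 0 in A/J tumours, against 1.22, 0.59 and 2.97 in NSG tumours. Cfd, the complement factor secreted by fat, read 1.61, 3.09 and 0.98 in A/J tumours, against 2.60, 2.91 and 5.56 in NSG tumours. NSG replicate 3 was the highest NSG library for 12 of the 12 adipocyte genes, 0 were called by limma or by voom, 1 had an unadjusted p under 0.05, and the median was -0.47, or -0.75 without A/J replicate 2. The liver gene Alb, at 1.46, 1.35 and 3.10 in A/J tumours and 0, 1.00 and 3.86 in NSG tumours, was also highest in NSG replicate 3. Endothelial genes had a median of -0.34, or -0.71 without A/J replicate 2, with Cdh5, the endothelial cadherin, at 4.09, 4.30 and 4.11 in A/J tumours and 4.46, 4.70 and 5.20 in NSG tumours. Of 12 endothelial genes tested 0 were called by limma, and 3 had an unadjusted p under 0.05.

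None of the listed epithelial and mammary tumour genes was called between hosts. Of 13 epithelial and mammary tumour genes tested, 5 had A/J libraries that all lay above the NSG libraries and 0 were called by limma or by voom, with 4 at an unadjusted p under 0.05. The shares over all genes were 7.48% above without overlap and 12.7% at an unadjusted p under 0.05. Elf3, an epithelial transcription factor, read 5.67, 6.79 and 5.90 in A/J tumours, against 5.59, 5.02 and 4.58 in NSG tumours, a difference of 1.06 (SE 0.32, limma adjusted p = 0.23). Epcam, the epithelial adhesion molecule, read 7.96, 8.59 and 7.65 in A/J tumours, against 7.44, 7.61 and 7.09 in NSG tumours. Krt5, a basal keratin, was 10.03, 7.34 and 9.66 in A/J tumours, against 9.80, 9.47 and 9.67 in NSG tumours, so that A/J replicate 2 alone was low.

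Genes of mitosis were lower in A/J replicate 2 than in the other A/J tumours, by a median difference of -0.43. Of 20 G2/M genes tested, 8 had A/J libraries that all lay below the NSG libraries and 0 were called by limma or by voom, with 6 at an unadjusted p under 0.05. Among all genes tested, 7.41% lay below without overlap and 12.7% had an unadjusted p under 0.05. The G2/M median was -0.29, and -0.19 without A/J replicate 2. Bub1b, the spindle checkpoint kinase, read 6.99, 5.90 and 6.74 in A/J tumours, against 7.16, 7.01 and 7.24 in NSG tumours, a difference of -0.60 (SE 0.19, limma adjusted p = 0.24), or -0.27 without A/J replicate 2. Mcm5, a subunit of the replicative helicase, read 7.73, 6.78 and 7.40 in A/J tumours, against 7.80, 7.91 and 7.98 in NSG tumours, a difference of -0.60 (SE 0.17, limma adjusted p = 0.22). The median of the 15 DNA replication genes was -0.21, or -0.13 without A/J replicate 2, and 0 were called by limma, with 2 at an unadjusted p under 0.05.

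The p53 targets and apoptosis regulators had medians of 0.11 over 20 genes and 0.20 over 16 genes, or 0.02 and 0.04 without A/J replicate 2, and 0 called by limma in either list, where 3 and 2 had an unadjusted p under 0.05. These 2 counts were near the share of 12.7% over all genes. Bbc3, which encodes the BH3-only protein PUMA, read 4.81, 6.13 and 5.66 in A/J tumours, against 4.41, 4.79 and 4.17 in NSG tumours, a difference of 1.08 (SE 0.36, limma adjusted p = 0.25). Mcl1, an anti-apoptotic BCL2 relative, read 8.18, 8.23 and 8.28 in A/J tumours, against 7.75, 7.95 and 7.85 in NSG tumours, a difference of 0.38 (SE 0.14, limma adjusted p = 0.28). Neither gene overlapped between hosts. Among the genes of the unfolded protein response, the chaperone gene Hspa5 read 9.22, 8.87 and 9.12 in A/J tumours, against 9.58, 9.52 and 9.75 in NSG tumours. Its co-factor gene Sdf2l1 read 5.40, 5.59 and 5.94 in A/J tumours, against 6.17, 6.70 and 6.44 in NSG tumours. Both were lower in every A/J library, by 0.55 and 0.79, and neither was called (limma adjusted p = 0.17 for each). The medians of the hypoxia, cholesterol, respiratory chain and ribosome lists lay between -0.06 and 0.06, or between -0.02 and 0.20 without A/J replicate 2, and 0 members were called by limma, with 0, 1, 3 and 0 at an unadjusted p under 0.05.

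The host difference was then set beside those of the same tumours under vehicle and of the WGD- tumours under YM-155, which use other libraries. Under vehicle, 1731 genes (12.5%) were called between hosts, 996 (7.2%) higher and 735 (5.32%) lower in A/J tumours. In WGD- YM-155 tumours 1041 genes (7.53%) were called, 659 (4.77%) higher and 382 (2.76%) lower. The WGD+ YM-155 count of 5 is far smaller, but a difference in counts is not a test. When the host difference under YM-155 was tested against that under vehicle, 0 genes were called by limma and 0 by voom, with 1156 (8.36%) at an unadjusted p under 0.05. Against the WGD- YM-155 tumours, 0 genes were called by limma and 0 by voom, with 1058 (7.65%) at an unadjusted p under 0.05. The first of these counts was 20 genes without A/J replicate 2 and 841 with array weights, a setting chosen after seeing the data.

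The lists differed in how far the comparisons matched. For MHC class I the median host difference in WGD+ YM-155 tumours was 0.74, or 0.15 without A/J replicate 2. It was 2.09 under vehicle with 13 of 16 genes called higher, and 1.66 in WGD- YM-155 tumours with 6 called higher. The summed class I level under vehicle was 7245, 2769 and 4379 CPM in A/J tumours, against 1070, 1111 and 872 CPM in NSG tumours. In the WGD- YM-155 tumours it was 1845, 8508 and 1880 CPM in A/J tumours, against 810, 986 and 966 CPM in NSG tumours. A/J libraries were thus uneven in each of the 3 comparisons, while the NSG libraries stayed within 810 to 1435 CPM.

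For H2-K1 the host difference under YM-155 minus that under vehicle was -1.45 with a 95% interval of -3.19 to 0.29. For Psme1 it was -0.97 with an interval of -1.71 to -0.23, and the limma adjusted p was 0.51. Ccl5, a T cell and macrophage chemokine, read 0.66, 0.97 and 1.34 in A/J YM-155 tumours, against 1.59, 2.71 and 1.61 in NSG YM-155 tumours. Under vehicle it read 2.26, 2.11 and 2.51 in A/J tumours, against 1.84, 1.72 and 1.05 in NSG tumours. The host order of Ccl5 was thus opposite in the treatments, without overlap in either, and the difference of -1.73 was not called (limma adjusted p = 0.50).

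The fibroblast and matrix list had a median of -1.20 in WGD+ YM-155 tumours, -1.37 under vehicle with 8 of 18 called lower, and -0.45 in WGD- YM-155 tumours with 0 called. Skeletal muscle had medians of 1.31, 1.09 and -0.31 in the same order, with 0 of 14 called in each. Mast cells had medians of -1.10, -1.07 and -0.33, with 1, 4 and 0 of 8 called lower. For Fbln1 the host difference in WGD+ YM-155 tumours minus that under vehicle was 0.08, with a 95% interval of -1.01 to 1.17. For Rnase2a it was -0.31, with an interval of -1.28 to 0.67.

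**Figure D5:**
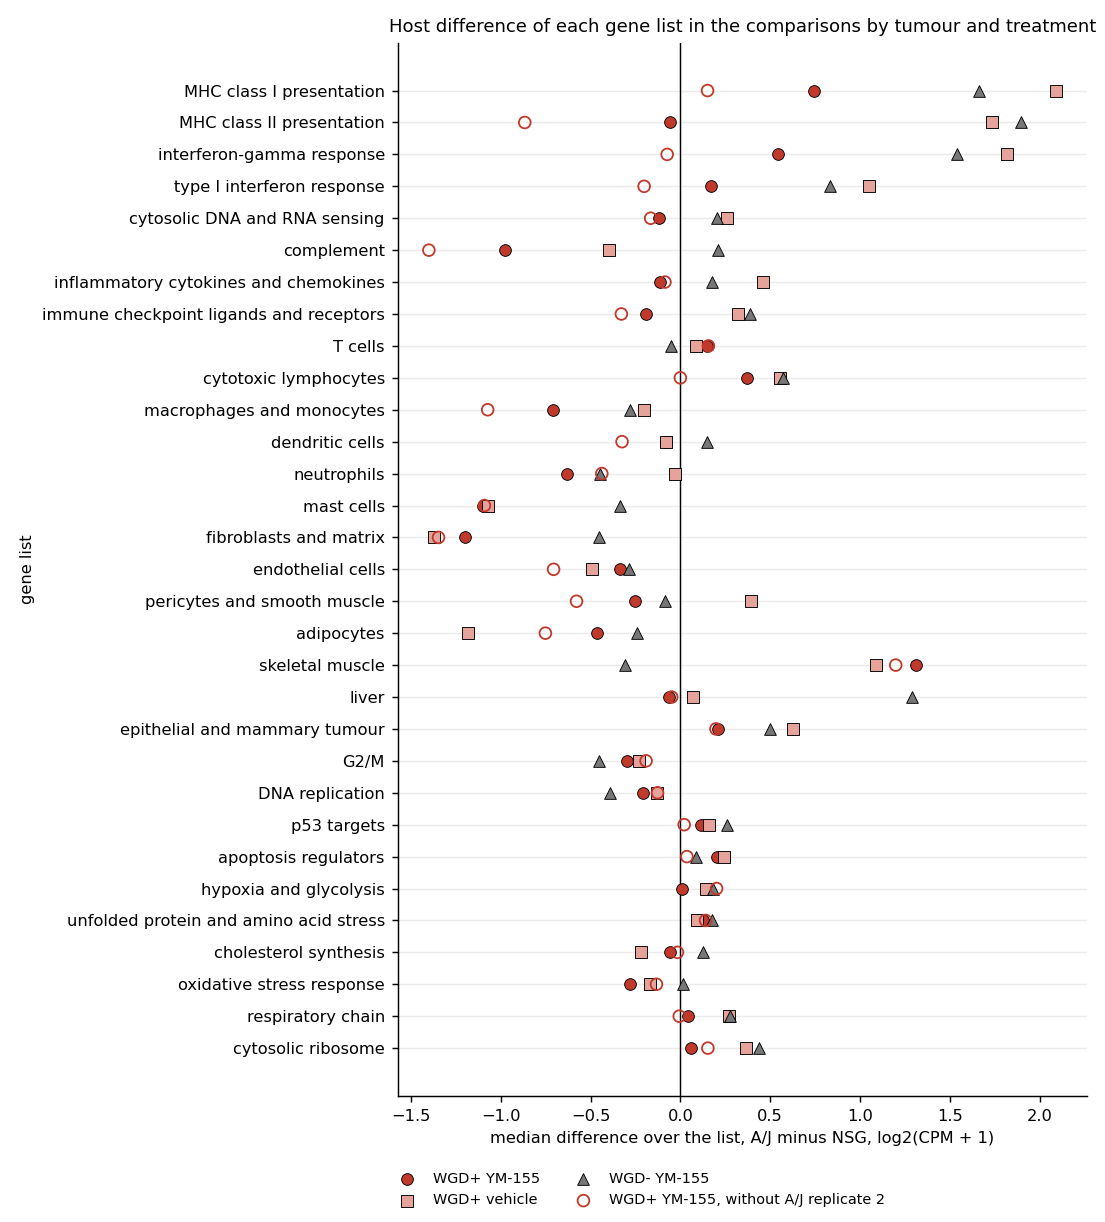
Median difference of each gene list, A/J minus NSG in log2(CPM + 1), in WGD+ YM-155 tumours (filled circles; open circles without A/J replicate 2), WGD+ vehicle tumours (squares) and WGD- YM-155 tumours (triangles). The MHC class I median is 0.74 in WGD+ YM-155 tumours, or 0.15 without A/J replicate 2, and 2.09 under vehicle. The fibroblast and matrix medians, -1.20 and -1.37, lie close together.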

How the data were processed

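The deposited values are log2(CPM + 1) with the authors' TMM scaling, 24 libraries of total RNA from a stranded mRNA kit. Reads were aligned with STAR 2.5.1b to mm10 and scaled with edgeR, per the submitters' processing notes; the gene counter is not given in the sources used here. Reversing the log gave whole reads, within 0.1, for 100% of values, at 3.23 to 7.75 M (mega) reads a library. Of 24360 rows, 27 with symbols turned into dates (at most 0.221% of reads) were left out. Genes above 1 CPM in at least 3 of 24 libraries, 13826, were tested with limma 3.58.1 (R 4.3.3), using group means of all 8 groups, a trended robust variance and Benjamini-Hochberg adjustment at 0.05. The fit was also run on simulated counts with the same dispersion for all genes and no library that stood apart. That run could not show how such a library affects the calls.

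Coordinates are GENCODE M21 (GRCm38). The members and the 36 gene lists were chosen with earlier results of these data known. Named were Birc5, Prkdc, Il2rg, called genes whose groups did not overlap and whose higher group averaged at least 3 (up to 10 a direction), and up to 4 called members of each list, or else the 2 with the smallest p; other genes in the text were chosen after their values were seen. Lists were described by counts and medians. Groups follow the titles; the genotype field agrees for the 6 main libraries and disagrees for all 12 comparison libraries.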

Additional observations from a re-analysis of the deposited data

How the results depend on the processing

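The count of genes called between hosts, 5, was 3 without a filter on low values, 10 after quantile normalization and 0 when the 6 libraries were fitted alone. It ran from 1 to 13 when each library was left out: 2, 1 and 10 without A/J replicates 1, 2 and 3, and 13, 1 and 2 without NSG replicates 1, 2 and 3. Chosen after seeing the data, voom gave 1, array weights 42 and leaving out 2 A/J WGD- vehicle libraries, whose best correlation with any other library was lowest, 28. The 5 genes stayed among the calls under quantile normalization, array weights and that last setting. Libraries of the same replicate number had correlations of deviations of 0.283, 0.232 and -0.00752, against -0.302 to 0.186 for the other pairs. By this measure 4 of 6 libraries were closest to their own number. The labels do not say what a replicate number marks, and the main fit held no replicate block. A replicate block gave 14 calls with all libraries and 3, none of them among the 5, with the 6 alone. Against vehicle, the count of 0 became 1 under the replicate block with only the libraries compared, 0 to 20 on leaving out each library (20 without A/J replicate 2), and 841 under array weights. The array weights put 9.36 on A/J WGD+ vehicle replicate 3. Against WGD- tumours it became 2 under the replicate block with all libraries, 1 under array weights and 0 to 1 on leaving out each library. The cause was not tested. Of 74 named genes no called gene changed sign, and 4 uncalled genes did. Called mast cell genes ranged from 0 to 4. Genes with under 3 reads in a library lie at the limit of this depth, and 3 libraries a group cannot give an exact permutation p below 0.1.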

Other observations

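When 2 A/J WGD- vehicle libraries, replicates 1 and 2, whose best correlation with any other library was lowest, were left out of the fit, 28 genes were called between hosts in the WGD+ YM-155 tumours, 11 higher and 17 lower in A/J; this setting and the genes named here were chosen after their values were seen. Genes lower in A/J included Slit3, a secreted guidance protein, at 1.02, 2.22 and 1.76 in A/J tumours and 3.01, 3.42 and 4.41 in NSG tumours. Esm1, a proteoglycan of activated endothelium, read 2.12, 1.73 and 2.56 in A/J tumours and 4.28, 4.29 and 3.09 in NSG tumours. Among those higher in A/J, Ppp1r15a, the stress-induced phosphatase subunit GADD34, read 5.35, 5.09 and 5.47 in A/J tumours and 4.60, 4.52 and 4.35 in NSG tumours. L1cam, a cell adhesion molecule, read 5.31, 6.23 and 5.56 in A/J tumours and 4.74, 4.24 and 4.09 in NSG tumours. In the fit of all 24 libraries their limma adjusted p were 0.079, 0.056, 0.071 and 0.11.

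S100a4, a calcium-binding protein of motile and stromal cells, had opposite host orders by treatment. It read 4.13, 4.99 and 4.09 in A/J and 5.63, 5.93 and 5.55 in NSG tumours under YM-155, and 5.02, 5.48 and 5.09 in A/J and 4.71, 4.51 and 4.63 in NSG tumours under vehicle. Without A/J replicate 2 the difference of the host differences was -2.17 (limma adjusted p = 0.035), 1 of 20 genes called in that setting. Bax, the pro-apoptotic BCL2 relative, was another of those 20 genes, but its host order was not opposite. It read 7.72, 8.82 and 7.84 in A/J and 7.61, 8.14 and 7.55 in NSG tumours under YM-155, against 8.34, 8.55 and 8.31 in A/J and 7.04, 7.07 and 7.08 in NSG tumours under vehicle. In the fit of all 24 libraries, its A/J mean was higher by 0.36 under YM-155 and by 1.33 under vehicle. With A/J replicate 2 included, neither was called.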
